A study of Bos taurus with 10 samples.

Results

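The 200 brightest transcripts of day 7 bovine embryos were ranked on 10 one-colour oligonucleotide arrays, and the steadiness of that ranking from array to array was described. A probe entered the ranking if the scanner software called it well above background on all 10 arrays, which held for 2490 of 43653 probes. The processed signals of these probes were ranked within each array, with rank 1 the brightest, and the ranks were averaged. The probe with the best mean rank then stood for each gene name, which left 1867 of the 25325 gene names on the array, and the first 200 of these are described here. They are 10.7% of the names ranked. The members were chosen by their processed signals, so their order and their levels are a description and carry no test. Probes bind with unequal strength, so a rank orders brightness and is a guide to abundance only in part.

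Each array carried RNA of 1 embryo sample, flushed on day 7 from superovulated cows that had been infused with solvent or with senktide, a synthetic peptide that activates the neurokinin-3 receptor. The vehicle group (DMSO) held 2 samples, the senktide group at 30 nmol/min held 4 and the senktide group at 300 nmol/min held 4. Infusion lasted 2 h and started 48 h after superovulation began, with insemination at 108 and 120 h in all groups. Nothing in the labels ties a sample to its own cow or gives its number of embryos. P-values therefore reflect the variation among the 10 samples, part or all of which may be technical. The extraction text names endometrium whereas titles, source and tissue fields name embryos. Of the lists of markers for other cells, none of 8 uterine and oviduct epithelium names, 8 stroma names, 8 blood names or 9 cumulus and granulosa names was ranked, and of 18 leukocyte names 1 was, LYZ, at position 1731. Of these same lists, 5, 5, 6, 7 and 11 names in turn were well above background on no array, so the rest were detected on at least 1.

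By day 7 the bovine embryo is typically a blastocyst, a fluid-filled ball of cells. Its outer epithelium, the trophectoderm, contains keratin filaments and surrounds the inner cell mass. The embryo's cells have taken over from the egg's stored messages and are building ribosomes and mitochondria for growth. Ribosomal protein messages, messages and ribosomal RNA of the mitochondrial genome, and cytoskeletal messages are commonly among the most plentiful RNAs of growing cells.

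The brightest probe lies in the mitochondrial gene COX2, at chrM:7966-8025 (plus strand, build Btau_3.1, as the files give it). It is printed whole because it heads the ranking, from the deposited probe table, 5′ to 3′.
COX2: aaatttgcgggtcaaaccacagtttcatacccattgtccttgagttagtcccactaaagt

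Some members share sequence with another member, so that 1 transcript could light both probes. Runs of at least 20 bases were shared by 14 of the 200 probes with another member on the same strand, and by 26 with a probe of another gene name anywhere on the array. After joining members that share a run, a reference name or a probe position, 192 separate items remained of the 200. In 7 of the 8 joined pairs the probes shared such a run, and in the eighth, AB099144 and TC359994, they overlapped in position by less than 20 bases. The pairs below are examples. In the last both members carry LOC names, and each of the others sets a gene beside a member that lacks a symbol of its own. Capitals mark the run that each pair shares, within 30 bases of each probe.
EEF1A1: TTTTGTGGACCATATGTTTTGTGTGTGGCa
A_73_P494338: TTTTGTGGACCATATGTTTTGTGTGTGGCc
RPS20: cattgctGATGCCTAAATCAACCTTTTTAA
A_73_P202827: gccGATGCCTAAATCAACCTTTTTAAtaaa
RPL27: GAACAAATGGTTCTTCCAGAAGCTGCGgtt
A_73_P489883: GAACAAATGGTTCTTCCAGAAGCTGCGatt
LOC790811: gatgCCTATGTCAGAAGCTTTCTCTatctc
LOC618367: gataCCTATGTCAGAAGCTTTCTCTgtcct
The shared runs are 29 bases for EEF1A1, 23 for RPS20, 27 for RPL27 and 21 for LOC790811. Each unnamed partner ranked behind its named gene, with A_73_P494338 at position 32 against 13 for EEF1A1, A_73_P202827 at 50 against 8 for RPS20, and A_73_P489883 at 97 against 41 for RPL27. LOC790811, which the files describe as an MHC class I antigen, ranked at 2, and LOC618367 ranked at 108. The other 3 probes of LOC790811 were well above background on 0 arrays, with median signals between 3.5 and 4.5 against 8256 for the ranked probe. The member at position 2 therefore rests on 1 probe.

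The members spanned a wide range of brightness. On the scale used throughout, log2 of the processed signal minus the array's 75th percentile over the 2490 ranked probes, the first member, COX2, averaged 5.61 and the last, EIF3CL, 0.96. COX2 was 21.1 to 31.3 times as bright as EIF3CL, a probe of a translation initiation factor subunit, depending on the array. COX2 was first on 7 of 10 arrays and never below rank 2. Its log2 signals were 5.84 and 5.69 with vehicle, 5.35, 5.80, 5.45 and 5.65 at the lower dose, and 5.69, 5.49, 5.66 and 5.50 at the higher dose. The lower dose overlapped both other groups. Both vehicle arrays lay above the higher dose, the nearest pair by less than the digits printed.

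Names in the list of ribosomal protein genes, which encode the protein part of the cytosolic ribosome, made up 68 of the 200 members. A further 4 members were named a ribosomal protein in their description only, and the counts here leave them out. Of 83 such names on the array, 77 were well above background on all 10 arrays, and 88.3% of those were members, against 10.7% of all names ranked. They filled 2 of the first 10 places, 12 of the first 25, 23 of the first 50 and 52 of the first 100. RPL6, of the large subunit, led them at position 6 with log2 signals of 4.58 and 4.54 with vehicle, 4.45, 4.45, 4.36 and 4.18 at the lower dose, and 4.48, 4.59, 4.22 and 4.25 at the higher dose. RPS20 and RPS27A of the small subunit stood at positions 8 and 14. RPS3, RPS13, RPLP2, RPL27A, RPL23, RPS18, RPS28 and RPS2 also stood in the first 25, with mean log2 signals from 3.94 for RPS3 to 3.40 for RPS2. The 9 ranked names of the list outside the 200 ran from RPL36AL at position 210 to RPL26L1, a paralog of RPL26, at 1492. The list's members held between 36.7% and 39.5% of the summed signal of the 200 on every array.

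The mitochondrial ribosome gave the opposite picture. Of 77 names for its proteins on the array, 37 were well above background on all 10 arrays and none was a member. The best placed was MRPL21, a large subunit protein, at position 360 with a log2 signal of 0.08 ± 0.17 (SD, n = 10). MRPL38 and MRPS26 came next at positions 398 and 491. The list's median position was 966, against 72 for the cytosolic list.

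**Figure D1:**
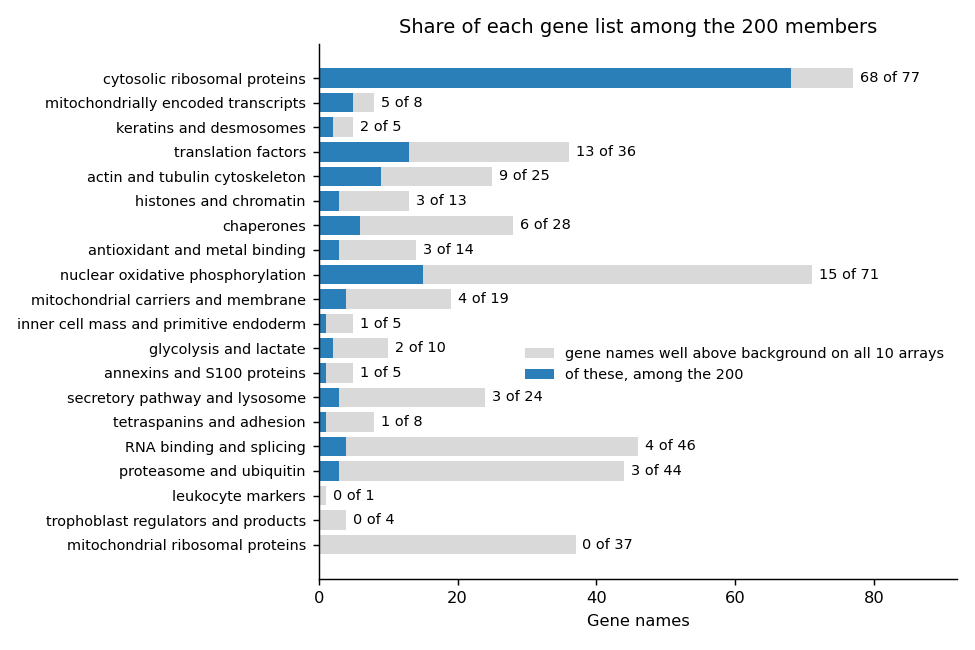
Number of gene names of each list that were well above background on all 10 arrays (grey bars) and that were among the 200 members (blue bars), with both counts printed at the bar's end. The cytosolic ribosomal protein bar is almost filled, at 68 of 77, whereas the mitochondrial ribosomal protein bar has none of 37.

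The mitochondrial genome gave 15 members, 4 of them in the first 10 and 6 in the first 25. Its probes held 12.8% to 18.8% of the members' summed signal. COX2, COX3 and COX1 encode core subunits of cytochrome c oxidase, ATP6 a subunit of ATP synthase and CYTB the cytochrome b of complex III. COX3 and ATP6 stood at positions 12 and 16, while COX1 and CYTB stood at 142 and 150. A separate probe described as a COX1 clone, DQ347622, starts at base 7237 of the chromosome against 7166 for the COX1 probe, and stood at position 86. The other 9 lay between chrM:962 and chrM:3023, upstream of the protein genes above. The files describe AB099098, TC359994 and AB099144 among them by a match to an antelope's mitochondrial 12S and 16S ribosomal RNA genes. AB099098 and TC359994 stood at positions 4 and 5, while AB099144 stood at 199, although the probes AB099144 and TC359994 overlap on the chromosome.

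Nuclear genes of oxidative phosphorylation, the machinery that makes ATP in mitochondria, gave 15 members out of 71 names ranked. ATP5F1B, the catalytic beta subunit of ATP synthase, led at 74 with a log2 signal of 2.60 ± 0.13 (SD, n = 10). CYC1 of complex III and the ATP synthase subunits ATP5F1A and ATP5MC3 followed at 103, 104 and 105. Of 19 ranked names for mitochondrial carriers and membrane proteins, 4 were members. The first in position, CKB at 35, is the brain-type creatine kinase, a cytosolic enzyme that the list holds beside its mitochondrial relatives. The others were CHCHD2 and the adenine nucleotide carriers SLC25A6 and SLC25A5 further down, the first pair at 101 and 102.

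Translation factors gave 13 members of 36 names ranked. EEF1A1, which carries aminoacyl-tRNA to the ribosome, stood at 13 with a log2 signal of 4.01 ± 0.13 (SD, n = 10). EEF2, which moves the ribosome along the message, stood at 76, TPT1 at 81 and EIF5A at 121. The ubiquitin gene UBB stood at 112 and the ubiquitin-conjugating enzyme UBE2S at 127. RNA-binding and splicing genes placed 4 of 46 ranked names, led by SNRPD3, a core protein of spliceosomal particles, at 134, then HNRNPAB, NPM1 and SNRPG.

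Cytoskeletal genes stood near the head of the ranking. ACTG1, cytoplasmic gamma-actin, was at position 3, with log2 signals of 5.03 and 5.36 with vehicle, 5.31, 5.62, 5.20 and 5.16 at the lower dose, and 5.47, 5.32, 5.54 and 5.11 at the higher dose. The actin-binding peptides TMSB10 and TMSB4X stood at 19 and 28, and ACTB, cytoplasmic beta-actin, at 30. In all, 9 of 25 ranked actin and tubulin names were members.

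KRT8, the type II keratin of simple epithelia and of the trophectoderm, stood at position 7. Its log2 signals were 4.21 and 3.89 with vehicle, 4.44, 4.07, 4.41 and 3.96 at the lower dose, and 4.52, 4.24, 4.75 and 4.06 at the higher dose. Its partner KRT18 stood at position 24, with ranks between 18 and 72. Of 11 keratin and desmosome names on the array, 5 were ranked and 2 were members, with JUP next at 440. S100A14, a calcium-binding protein of epithelia, stood at 29 and EPCAM, an epithelial adhesion molecule, at 179. S100A14 was the only member of the annexin and S100 list, where 5 of 30 names were ranked. EPCAM was the only member of the tetraspanin and adhesion list, where 8 of 22 were ranked, with CDH1 next at 320. No name of the list of trophoblast regulators and products was a member. Of the 21 on the array, 4 were ranked, the best of them the transcription factors GATA2 at 587 and GATA3 at 1045, and SSLP1 at 837.

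Of 24 names on the array in the inner cell mass and primitive endoderm list, 5 were ranked and 10 were well above background on no array. The list's median position was 755. Its only member was FN1, the matrix protein fibronectin, at position 47. FN1 varied little, with a log2 signal of 2.99 ± 0.13 (SD, n = 10). The pluripotency factor POU5F1 was reached by a probe that carries only a transcript name. This member, ENSBTAT00000028122 at position 186, is described in the files as the POU class 5 octamer-binding factor, and it lies at chr23:27910363-27910422. The probes that carry the symbol POU5F1 lie at chr23:27909230-27909289 and chr23:27909982-27910041 and were well above background on 0 and 4 arrays. The first 30 bases of each are printed to tell them apart, with no capitals because no stretch is marked.
ENSBTAT00000028122: ggagggaaggtgaagttcaatgatgctctt
POU5F1 (probe on 0 arrays): aacgactatctgccattttgaggctttgca
POU5F1 (probe on 4 arrays): tcaagcagtgacaactcccaacgtgaggat
The transcript-named probe gave log2 signals of 1.25 and 0.97 with vehicle, 0.92, 1.31, 0.95 and 0.81 at the lower dose, and 0.87, 0.92, 1.50 and 1.34 at the higher dose. The groups overlapped. Its median signal was 333 and it starts at base 1542 of its transcript record. The probes named POU5F1 start at bases 542 and 861 of theirs, which may be another record, and had median signals of 2.7 and 13.2.

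Chaperones gave 6 members of 28 names ranked, with HSPB1, a small heat shock protein, at 62, the proline isomerase PPIA at 67, and HSP90AB1 and HSP90AA1 at 77 and 91. Iron storage was represented by FTH1 at 37 and FTL at 184, and detoxification by GSTP1 at 147. HMGA1, a chromatin architecture protein, stood at 59, the histone variant gene H3-3A at 99 and the histone chaperone SET at 160. Lysosomal and secretory genes placed CTSV, a cathepsin, at 98, the proton pump subunit ATP6V1G1 at 155 and the protease inhibitor CSTB at 192. The glycolytic enzyme GAPDH stood at 154 and LDHB, a lactate dehydrogenase subunit, at 171. Of 12 maternal oocyte names on the array, none was ranked and 10 passed detection on no array.

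At the edge of the ranking the last 5 members were COX5A, NAP1L1, CCT4, AB099144 and EIF3CL, with mean ranks from 342.6 to 344.5. The next 5 names were MYL6, HNRNPK, ARF1, ATP5MC1 and MPC1, with mean ranks from 344.6 to 356.0. The ranks of EIF3CL and MYL6, at 344.5 and 344.6, varied over arrays with SDs of 27.2 and 81.8. The limit at 200 thus divides genes whose mean ranks lay closer together than their spread.

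The order was steady in its broad course and loose between neighbours. The median member's rank had an SD of 21.7 over 10 arrays, and 89 members had an SD of at most 20. Of the 200 members, 161 were among the 200 brightest gene names of every array when each array was ranked on its own, and 176 were so on at least 8 arrays. Each array's own first 200 held between 183 and 193 of the members. Of 199 neighbouring pairs, in none was the first gene brighter on all 10 arrays. At 10 places apart this held for 12.1% of pairs, at 25 places for 46.3%, at 50 places for 85.3% and at 100 places for all 100 pairs. Spearman's rho between arrays over the members ranged from 0.881 to 0.976 with a median of 0.945 over 45 array pairs, a description across genes that are not independent. Its median was 0.957 over the 12 pairs on 1 slide and 0.943 over the 33 pairs on different slides.

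**Figure D2:**
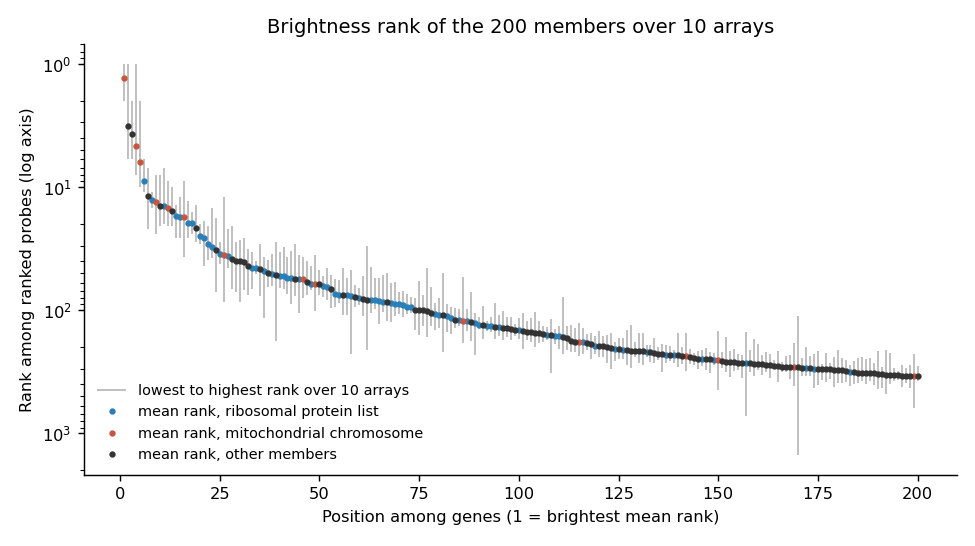
Rank of each member among the 2490 probes (vertical log axis, bright at the top) against its position among genes. Dots are mean ranks (blue, ribosomal protein list; red, mitochondrial chromosome; black, other members) and grey lines run from the lowest to the highest rank over the 10 arrays. Most lines are short against the whole range, and a few, such as the one at position 170 that reaches rank 1509, are long.

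The spread of the signal itself was small for most members. The median SD of log2 signal over the 10 arrays was 0.18, against 0.24 for the 1667 ranked names outside the 200. It was under 0.25 for 149 members and over 0.4 for 13. Among the steadiest were ALYREF, an mRNA export adaptor, with an SD of 0.06, and TKT, the transketolase of the pentose phosphate pathway, with 0.07. H3-3A, the ATP synthase subunit ATP5F1C, HMGA1 and the ribosomal genes RPL15, RPL11 and RPLP0 completed the 8 smallest, with SDs of 0.07 to 0.08. ALYREF ranged from 0.88 to 1.08 over all arrays, yet its rank ran up to 368. The technical error within an array could be read from 3 ranked probes printed in 4 spots, whose median SD of log2 between spots was 0.067. RPL32 was the only member among them.

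Among the 8 members with the largest SD, 4 were lowest on the same array. LOC788157, described as an elongation factor 1 alpha 1-like gene, had log2 signals of 2.28 and −1.35 with vehicle, 2.06, 1.98, 2.30 and 2.42 at the lower dose, and 2.10, 1.52, 2.38 and 2.24 at the higher dose. Vehicle replicate 2 was thus low, at rank 1509, and all other arrays were high. With vehicle replicate 1 left out, LOC788157 was called higher at both doses (limma adjusted p = 0.0151 and 0.0129). The low array was then the only vehicle array, assumed to vary like the senktide arrays, so that this call restates 1 low reading. RPL39, of the large subunit, was also lowest on vehicle replicate 2, at −0.23 against 1.00 to 2.29 elsewhere. RPL14 was at 1.55 there against 2.74 to 3.24 elsewhere. The same array was lowest for ENSBTAT00000013301, described as similar to RPL35, at 1.88 against 3.00 to 3.76.

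Other probes of these genes gave a check within the gene. A second RPL14 probe, almost as bright at a mean rank of 77.8 against 76.3, read 2.91 on vehicle replicate 2 and differed there from its median on the other arrays by 0.03, while the ranked probe differed by −1.44. A second RPL39 probe differed by −0.26, against −2.12 for the ranked probe. The low reading thus belonged to 1 probe of RPL14 and, for the most part, of RPL39, and what sets such a probe apart was not tested. For TPT1, the translationally controlled tumour protein, 1 array was low by every probe. Its ranked probe read 1.58 on replicate 4 of 30 nmol/min against 1.92 to 3.03 elsewhere, and its 4 other ranked probes were also low there, at −0.56 to −0.68 from their medians on the other arrays, against −1.17 for the ranked probe. The ranked probe was also low on replicates 3 and 4 of 300 nmol/min, at 2.02 and 1.92, where the brightest of the other probes read 2.71 and 2.44, within its range of 2.23 to 2.73 elsewhere. CYTB and the mitochondrial probes AB099144 and AB099099 were lowest on replicate 2 of 30 nmol/min, at 0.46, 0.00 and 2.63.

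**Figure D3:**
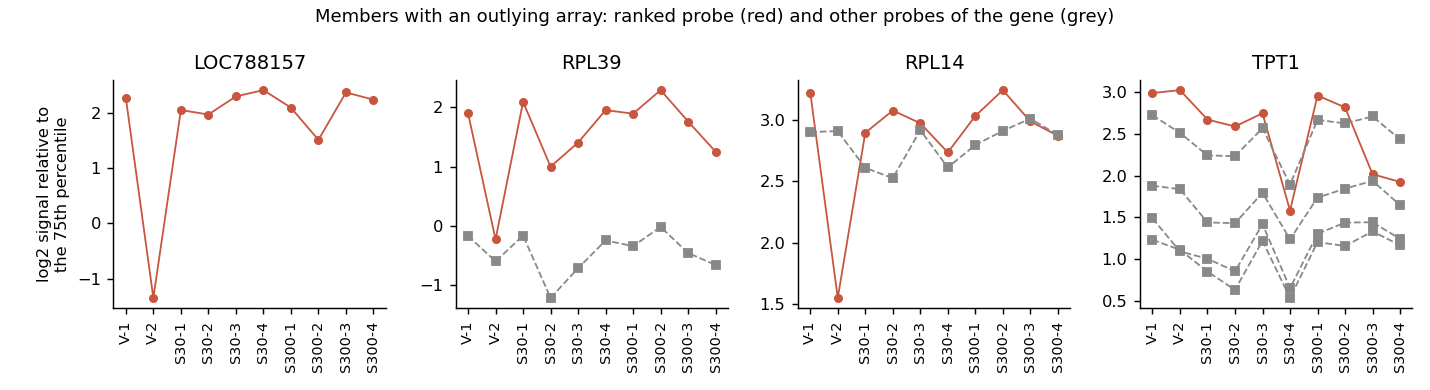
Log2 signal relative to the array's 75th percentile on each of the 10 arrays (V, vehicle; S30 and S300, senktide at 30 and 300 nmol/min; the last digit is the replicate), with a separate vertical scale in each panel. Red points are the ranked probe and grey squares other probes of the gene that were well above background on all arrays. On V-2 the ranked RPL14 probe is at 1.55 and the other probe at 2.91, and on S30-4 all 5 TPT1 probes are at their lowest.

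Among the members, where a probe lies along its transcript went with how bright it was. For 85 members the array holds probes of the same transcript record that start at least 300 bases apart. In 77 of these the probe nearest the transcript's end was brighter than the probe nearest its start on all 10 arrays, and in 4 it was dimmer on all 10. The median difference was 5.37 on the log2 scale. In 29 of the 85 the probe nearest the start was well above background on no array. For FN1 the probe that starts at base 883 had a median signal of 6.2 and the probe at base 7963 one of 1182. For GAPDH the probes at bases 177 and 1210 gave 3.6 and 483, and for ACTG1 those at bases 719 and 1888 gave 13.5 and 7521. The exceptions included H3-3A, RPL7, TMSB10 and RPS26, where the probe nearest the start was the brighter. The part that probe position plays in the ranking was not tested.

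**Figure D4:**
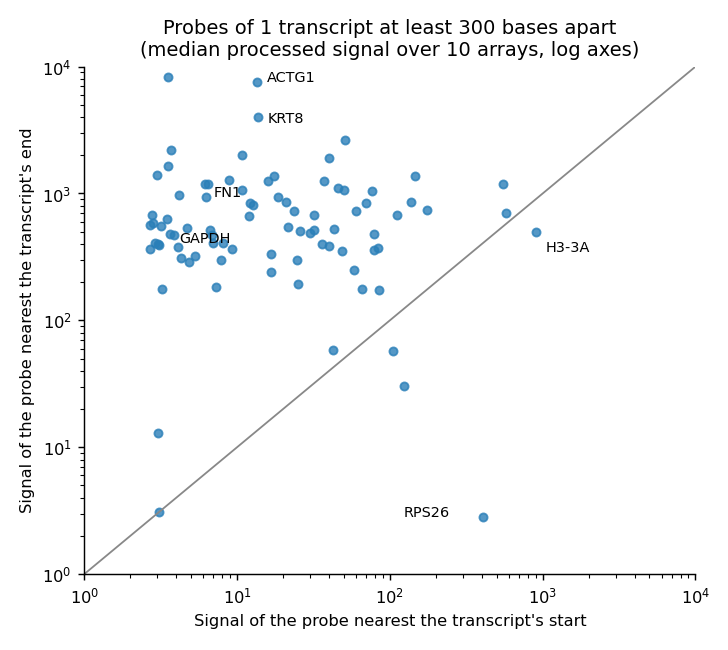
Median processed signal over the 10 arrays of the probe nearest the start (horizontal log axis) and nearest the end (vertical log axis) of the same transcript, for the 85 members with probes at least 300 bases apart. The line marks equal signal. Most points lie far above the line, GAPDH at 3.6 and 483, and RPS26 is the farthest below it.

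More widely, 167 members had at least 1 other probe. Of these other probes, 289 were well above background on all 10 arrays and 104 on none. For 14 members every other probe was well above background on no array, among them LOC790811, RPS27A, HSPB1, UBE2S, ATP5MC3 and COX5A. The median probe GC content was 43.3% in the members, as in the ranked probes, and 45.0% over the array.

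The name ITPR1, that of a gene for a calcium channel of the endoplasmic reticulum, stood at position 10 by a probe at chr22:22199276-22199334. Its other bright probes lie at chr22:22199227-22199286 and chr22:22199235-22199294, with mean ranks of 139 and 151. The remaining 4 ITPR1 probes were well above background on 0 arrays, with median signals of 3.1 to 7.3 against 3848, 1028 and 871 for the bright ones. The first 30 bases of the bright probes are shown because they alone carry the gene's rank, and capitals in the last pair mark the start of a run of 52 bases common to both.
ITPR1 (position 10): tttagctgagtgtcccgcggggcccgaagc
ITPR1 (mean rank 139): ATAGCGTATATTAAAGTTGCTGCAGTTAAA
ITPR1 (mean rank 151): cagctccaATAGCGTATATTAAAGTTGCTG
The probe at position 10 also shares 41 bases, on the opposite strand, with a CFDP2 probe that had a mean rank of 714. The nearest dim probe lies at chr22:22199037-22199096, with a median signal of 7.3. The signal under the name ITPR1 thus came from 1 short stretch of the chromosome. Whether these probes reported the ITPR1 message was not tested.

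A cluster of members at chr21:52041370-52042986 had no gene symbol. AB099101, at position 175, is described by its likeness to rat 18S, 5.8S and 28S ribosomal RNA genes. LOC781039 at 88 and ENSBTAT00000012312 at 193 flank it, the latter a probe of 86.7% GC, the highest of all members.

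Names that were very bright on some arrays but failed the detection rule were few. The arrays' own first 200 together held 264 names, of which 57 were ranked names outside the 200 members and 7 were not well above background on all 10 arrays. Of these 7, 6 were in the first 200 of vehicle replicate 1 alone, among them PHIP, SLC35E2B, FDPS and BPIFA1. The seventh, SPRR3, a cornified envelope protein of squamous epithelia, was well above background on 9 arrays and reached position 12 on replicate 2 of 300 nmol/min, its best. Its processed signals, not scaled between arrays, were 93.1 and 73.2 with vehicle, 154, 54.3, 8.2 and 245 at the lower dose, and 1371, 2389, 90.0 and 133 at the higher dose. Replicates 1 and 2 of 300 nmol/min were thus high and the other arrays low.

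The ranking did not use the treatment groups, so the groups could be compared over the members. In the limma fit over all 8933 probes well above background on at least 2 arrays, 0 members passed an adjusted p of 0.05 in any comparison of groups. Over all probes the share called was 0% higher and 0% lower at 30 nmol/min against vehicle, 0.0112% higher and 0% lower at 300 nmol/min, and 0% in both directions between the doses. At an unadjusted p of 0.05, 5 members were higher and 4 lower at 30 nmol/min than with vehicle, beside 4.94% and 6.32% of all probes tested. At 300 nmol/min these counts were 4 and 4, beside 5.89% and 7.95%. The median member differed from vehicle by −0.04 at 30 nmol/min and by −0.0047 at 300 nmol/min, against −0.11 for all probes tested at both doses. Both comparisons share the same 2 vehicle arrays.

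The members with the smallest p at 30 nmol/min were CS, ENSBTAT00000012312 and COX5A. CS, the citrate synthase of the Krebs cycle, read 1.31 and 1.63 with vehicle and 0.80, 0.48, 1.04 and 0.72 at 30 nmol/min, a difference of −0.71 (SE 0.21, limma adjusted p = 0.309). COX5A, a subunit of cytochrome c oxidase, read 0.68 and 0.65 with vehicle and 1.20, 1.24, 1.07 and 1.08 at 30 nmol/min, a difference of 0.49 (SE 0.17, limma adjusted p = 0.372). Both genes were picked by p, so the spacing of their groups is no separate evidence, and neither passed the threshold. At 300 nmol/min UBE2S read 2.03 and 2.13 with vehicle and 1.40, 1.54, 1.32 and 1.67 with senktide, a difference of −0.59 (SE 0.21, limma adjusted p = 0.278). ENSBTAT00000012312 differed from vehicle by −0.60 and −0.65 at the lower and the higher dose, with limma adjusted p = 0.322 and 0.241. LOC783463, described as a miscellaneous RNA, differed by 0.54 at the higher dose (limma adjusted p = 0.309). The LOC783463 probe, at position 187, shares 30 bases on the same strand with an RPS4X probe of mean rank 60.6. Whether RPS4X transcripts lit it was not tested.

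Between the doses, 7 members were higher and 0 lower at 300 than at 30 nmol/min at an unadjusted p of 0.05, beside 1.68% and 1.32% of all probes. Of these 7, 6 lay on the mitochondrial chromosome, namely COX3, ATP6, COX1, CYTB, DQ347622 and AB099127, and the seventh was CS. None passed after adjustment, with a limma adjusted p of 0.999 for each. The COX1 clone DQ347622 read 1.96, 1.90, 2.14 and 2.15 at the lower dose, 2.88, 3.17, 2.59 and 2.88 at the higher dose, and 2.44 and 2.26 with vehicle. It is among the 7 members picked by p, and its doses differed by 0.84 (SE 0.17). The COX1 probe differed between doses by 0.81 (SE 0.18). All 15 mitochondrial members were higher at 300 than at 30 nmol/min in their means, beside 48.2% of all probes tested, with a median difference of 0.32, whereas the 68 ribosomal protein members had a median of 0.04 and 44 were higher. These 15 share 1 chromosome and its transcripts and are not independent of each other.

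The difference was smaller without replicate 2 of 30 nmol/min. On that array the median deviation of the mitochondrial members from their means over all arrays was −0.61, against −0.09, −0.26 and −0.05 on replicates 1, 3 and 4. At 300 nmol/min the deviations were 0.34, 0.05, 0.05 and 0.23, and the vehicle arrays had 0.36 and −0.0027. Without replicate 2 of 30 nmol/min 14 of the 15 were still higher at 300 nmol/min and the median difference was 0.14. On slide 3 alone it was 0.21, with 14 higher, and on slides 1 and 2 alone 0.42, with 15 higher. At 30 nmol/min all 15 were lower than with vehicle, beside 5359 of the 8933 probes, with a median of −0.39. At 300 nmol/min 6 were higher and 9 lower, beside 59.4% of all probes lower, with a median of −0.16. These comparisons share the arrays of the lower dose or of vehicle with the comparison between doses.

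**Figure D5:**
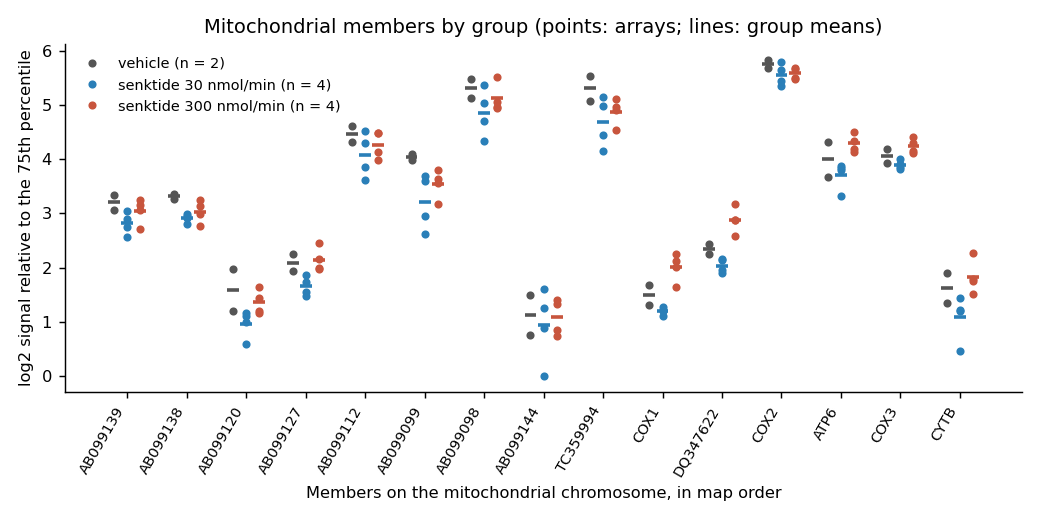
Log2 signal relative to the array's 75th percentile of the 15 members on the mitochondrial chromosome, in map order. Points are arrays (grey, vehicle; blue, 30 nmol/min; red, 300 nmol/min) and short lines are group means. Each red mean lies above the blue mean, by 0.02 for COX2 and by 0.84 for DQ347622.

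The arrays lay on 3 slides. Replicates 1 of all groups were on slide 1 and replicates 2 on slide 2, whereas slide 3 carried senktide arrays alone, replicates 3 and 4 at either dose. Between 7.17% and 13.2% of probe spots were well above background on the arrays of slides 1 and 2, and between 18.3% and 19.6% on those of slide 3. Among the 8 senktide arrays, a limma fit of slide 3 against slides 1 and 2 called 2.92% of the 8933 probes higher and 12.2% lower, and 0 members in either direction. At an unadjusted p of 0.05, 2 members were higher and 5 lower, beside 8.16% and 20.3% of all probes. AB099101 was the closest, higher on slide 3 by 0.51 (SE 0.15, limma adjusted p = 0.0604), followed by NDUFA4, of complex IV, lower by −0.42 (SE 0.14, limma adjusted p = 0.0784), and CLIC1, a chloride channel protein, lower by −0.41 (SE 0.15, limma adjusted p = 0.101). CLIC1, picked by p, read 3.00, 2.97, 2.96 and 3.14 on the senktide arrays of slides 1 and 2 and 2.55, 2.56, 2.82 and 2.51 on slide 3. Scaled on the 75th percentile of all probes instead, 87.5% of the 8933 probes were called higher on slide 3, with a median difference of 1.42, and so were all 200 members, with a median of 1.44 in place of −0.05. Under that scaling all 200 also lay higher than vehicle at both doses, by medians of 1.02 and 1.17, beside 0.95 and 1.06 for all probes. In the raw processed signals the members held 32.6% to 32.9% of an array's summed probe signal on slide 3 and 23.5% to 29.3% elsewhere.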

How the data were processed

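Cy3-labelled RNA, made with a linear amplification kit from 10 samples of embryos, was hybridised to 1-colour bovine arrays, per the labels' protocols. The deposited scanner files hold an intensity per spot, background-subtracted and detrended by the scanner software, whose version is 11.5.1.1 in the file headers (the submitters' processing notes name 10.5.1.1). The authors' log2 value table was not used. Detection and outlier flags come from the file headers' software; outlier spots were left out and 0 spots were saturated. The number of arrays limits the precision.

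Values were log2 of the intensity minus each array's 75th percentile, taken over the 2490 ranked probes. Groups were compared with limma 3.58.1 in R 4.3.3 (lmFit, eBayes) over probes well above background on at least 2 arrays, with Benjamini-Hochberg adjustment, and the code was tested on simulated data. Same-numbered senktide arrays share a slide, and their deviations correlated at r = 0.493, 0.241, 0.444 and 0.322. Between the doses, senktide pairs of unlike number ran from r = −0.474 to 0.406. Among these, replicate 1 of 30 nmol/min and replicate 2 of 300 nmol/min, on different slides, had 0.401. Names came from a RefSeq table (ARS-UCD2.0, names only), which gave 166 of the 200 members a symbol other than a LOC name; coordinates are those of the files (Btau_3.1). The members and the 25 gene lists were chosen with earlier results of these data known. Named were the first 25 members, the first 4 of each list (or the best 3 ranked), the 8 steadiest and 8 loosest, the 5 on each side of place 200, the 3 smallest p per comparison and up to 8 bright names that failed detection; accession-only names appear where a result turns on them, and a few genes that the rule names are not reported here.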

Additional observations from a re-analysis of the deposited data

Results flagged for a closer look

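Among 182 sets of 4 arrays examined, from 86 named genes and the array measures in each senktide group, 9 had 1 array far from the other 3 by Dixon's criterion, where about 1 in 20, or 9.1, would be flagged by chance.

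At 30 nmol/min, replicate 2 was apart for EEF1A1, at a log2 signal of 3.71 against 4.04 to 4.07, and for ATP6, at 3.33 against 3.80 to 3.88. Replicate 4 was apart for TPT1, at 1.58 against 2.59 to 2.75, and for FN1, at 2.80 against 3.05 to 3.07. Replicate 3 was apart for the actin-binding TMSB4X, at 2.96 against 3.63 to 3.64, and for EPCAM, at 0.99 against 1.17 to 1.19.

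At 300 nmol/min, replicate 4 was apart for KRT18, at 2.82 against 3.72 to 3.84, and replicate 1 for EIF3CL, at 1.08 against 0.89 to 0.91. The ribosomal protein members held 39.5% of the members' summed signal on replicate 2, against 37.0% to 37.3% on the others.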

How the results depend on the processing

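Of the 200 members, 192 were kept with a normexp background correction, 195 with median ranks, 198 with mean log2 signals, 200 with detection required on at least 8 arrays, 199 with no detection rule, 165 with the median over a gene's probes, and 200 both with reference names and with outlier spots kept. Slides 1, 2 and 3 alone kept 190, 192 and 197, and leaving out 1 array kept 197 to 200. The 161 members in every array's own first 200 became 157 with normexp, 164 on slides 1 and 2, 175 on slide 3, and 161 to 164 without 1 array. With the replicate number as a block, 0 members were called in each of the 3 group comparisons; a replicate block cannot be fitted beside slide, which follows from it. With normexp and quantile normalization 1 member was called at 300 nmol/min against vehicle (YWHAQ), 1 between doses (DQ347622) and 16 by slide, beside 0.918% higher and 0.280% lower, 0.0112% and 0%, and 15.7% and 4.67% of all probes. Without vehicle replicate 1, which leaves 1 low vehicle array assumed to vary like the senktide arrays, LOC788157 was called higher at both doses (limma adjusted p = 0.0151 and 0.0129), beside 0.358% and 0.336% of all probes, so that leaving out 1 array gave 0 to 1 calls there, 0 between doses and 0 to 1 by slide (TUBA1B or TPT1). The slide comparison called 1 member with quantile normalization, beside 1789 of 8933 probes higher and 483 lower. It called 200 when scaled on the 75th percentile or median of all probes, beside 87.5% and 91.8% higher. It called 2 with detection required on all 10 arrays, beside 0.924% higher and 5.06% lower, and 2 with no filter, beside 1.25% and 78.9%. Leaving out arrays from the mitochondrial comparison, chosen after seeing the data, left 14 to 15 higher. The causes were not tested. Dim signals limit the lower ranks.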
